A study of Mus musculus with 6 samples.

Results

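Hs3st1, the gene of heparan sulfate 3-O-sulfotransferase 1, was described together with 9 other genes of heparan sulfate assembly and its membrane carriers in cells sorted from the mouse renal medulla. The 10 genes were taken by symbol from the table of 37583 genes: the 3-O-sulfotransferases Hs3st1 and Hs3st6, the 2-O- and 6-O-sulfotransferases Hs2st1 and Hs6st1, the N-sulfotransferases Ndst1 and Ndst2, the polymerases Ext1 and Ext2, and the core proteins Sdc1 and Sdc4. Hs3st1 was selected on its measured difference in expression between the injured and control groups, and the other members were chosen with that comparison known. Differences of the 10 genes between the groups are therefore given as descriptions. Their calls in the fit over all genes are only counted beside the shares of all genes, and are not read as a test.

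The mice were 12 weeks old and carried a B1 VATPase EGFP transgene, which marks intercalated cells, the acid- and base-moving cells of the collecting duct. Their EGFP-positive cells were collected 2 h after renal ischemia reperfusion injury (IRI, 3 samples) or 2 h after sham surgery (3 samples). Cells of 2 mice, or 4 kidneys, were pooled for each sample, so the values average over animals, and the p-values measure only the spread between these pooled samples, which may be technical. Both groups shared transgene, age and sort. The genotype entry of the labels also names the CX3CR1 gene as the driver of EGFP, and the tissue entry names the epididymis, while the design text names the renal medulla.

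Heparan sulfate is a long sugar chain carried by core proteins such as syndecans and glypicans. EXT1 and EXT2 polymerise it in the Golgi, NDST enzymes replace acetyl groups by sulfate, an epimerase and 2-O- and 6-O-sulfotransferases modify it further, and 3-O-sulfation comes last and is the rarest step. The product of HS3ST1 is known for completing the site on the chain that binds antithrombin. On epithelial cells the chains hold growth factors such as HB-EGF and the FGFs near their receptors.

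Hs3st1 (ENSMUSG00000051022) was almost silent in sham cells and was among the better expressed genes after IRI. It had 2362, 3571 and 1863 reads in IRI replicates 1, 2 and 3, against 41, 27 and 42 reads in sham replicates 1, 2 and 3. Per length, as the deposited RPKM (reads normalised to gene length and library size), this was 28.7, 43.5 and 23.9 in the IRI samples and 0.442, 0.313 and 0.624 in the sham samples. Every IRI sample stood far above every sham sample, with IRI replicate 2 the highest. In order of RPKM, Hs3st1 was gene 1738 to 2621 of the 18935 to 19434 genes with a read in an IRI library, and gene 11897 to 13219 of 18621 to 18878 in a sham library. The fitted log2 fold change of IRI over sham was 6.18 ± 0.34 (SE), a 72.5-fold difference and the 21st most positive of 13881 genes tested. Leaving out any 1 library gave 5.87 to 6.40. In sorted bulk samples, fewer cells of a type and less RNA per cell cannot be told apart.

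**Figure D1:**
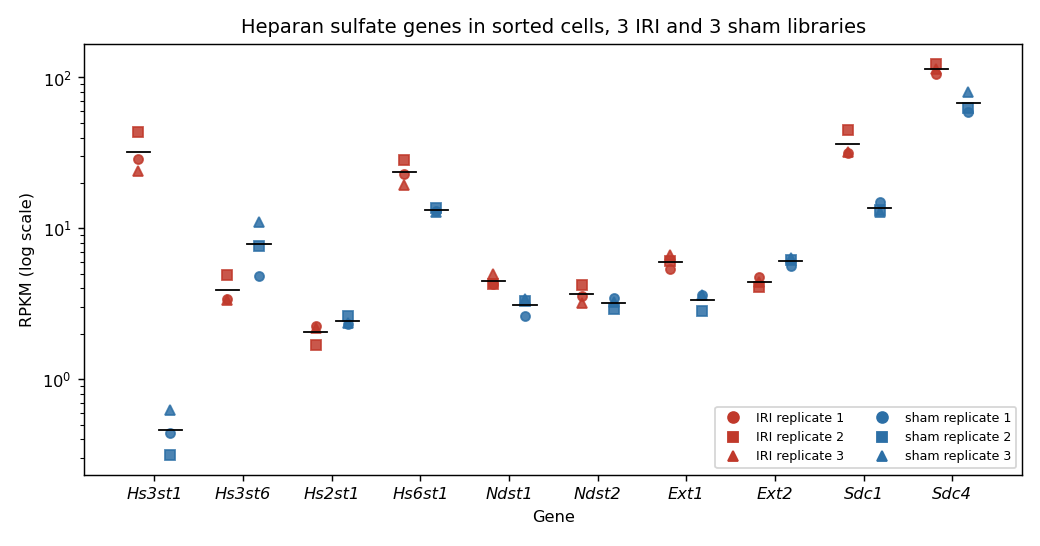
RPKM of the 10 genes on a log axis in 3 IRI (red) and 3 sham (blue) libraries, with the marker shape giving the replicate and the bar the group mean. Hs3st1 lies at 23.9 to 43.5 in IRI and at 0.313 to 0.624 in sham, while the other genes lie closer together.

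Libraries held 17421669 to 24245330 reads counted in genes. CPM is reads normalised to the TMM-scaled library size, not to gene length. The summed level of 9 intercalated cell markers was 21212 to 25483 CPM in IRI and 20056 to 25578 CPM in sham, with 2 called lower (Atp6v1b1 and Kit). That of 8 principal cell markers was 6071 to 11820 CPM in IRI and 12241 to 13662 CPM in sham, with 2 called lower (Aqp3 and Hsd11b2). Thick ascending limb markers summed to 981 to 1669 CPM in IRI and 1131 to 1799 CPM in sham. Proximal tubule markers summed to 4052 to 7154 CPM in IRI and 5719 to 9210 CPM in sham, with Lrp2 called lower. Most of that sum was Gpx3, at a mean of 5154 CPM in IRI and 7513 CPM in sham. Of 10 macrophage and dendritic cell markers, 9 were tested and 3 called higher (Cd68, Lyz2 and Ptprc), with a sum of 53.1 to 79.9 CPM in IRI and 11.3 to 18.2 CPM in sham. Most of the difference in that sum was Cd68, at a mean of 37.7 CPM in IRI and 0.903 CPM in sham, while C1qa (log2 fold change 0.12, adjusted p = 0.923), C1qb (0.07, adjusted p = 0.962) and Csf1r (0.29, adjusted p = 0.649) were not called by edgeR. Of 9 endothelial markers, 6 were tested and 1, Flt1, called higher, with a sum of 11.6 to 20.8 CPM in IRI and 6.33 to 12.8 CPM in sham. Hs3st1 itself stood at 90.0 to 164 CPM in IRI and 1.14 to 2.28 CPM in sham, and the part of these cells in its difference was not tested. All 6 markers of mast cells, which are known to make heparin, had 0 reads in all libraries, and 7 neutrophil markers summed to at most 3.73 CPM in IRI and 0.118 CPM in sham. The 8 epididymis markers summed to 4.63 to 10.7 CPM in IRI and 8.90 to 14.2 CPM in sham.

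The leading member of the 3-O-sulfotransferase family per length was Hs3st1 in IRI and Hs3st6 in sham. In read counts, not scaled by length, sham replicate 1 was led by Hs3st3b1 with 45.7% of the family's reads, against 40.04% for Hs3st6. Hs3st6, another enzyme of the family, had 3.39, 4.92 and 3.36 RPKM in the IRI samples and 4.84, 7.65 and 10.97 RPKM in the sham samples. IRI replicate 2 reached just above sham replicate 1, so the groups overlapped, and the log2 fold change was -0.97 ± 0.30. Per length, Hs3st1 made up 82.2 ± 3.59% of the family's summed RPKM in IRI and 4.55 ± 1.28% in sham (SD, n = 3 each), and Hs3st6 10.2 ± 0.846% in IRI and 74.5 ± 10.3% in sham. The family's sum was 30.2 to 50.5 RPKM in IRI and 7.69 to 13.3 RPKM in sham. The ratio of Hs3st1 to Hs3st6 RPKM within a library was 8.45, 8.86 and 7.13 in IRI and 0.0913, 0.0410 and 0.0569 in sham.

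Among the other 5 members of the family, Hs3st3b1 and Hs3st5 passed the filter on low counts. Hs3st3b1, whose product makes chains that herpes simplex virus can bind, averaged 2.41 RPKM in IRI and 1.59 RPKM in sham (log2 fold change 0.63 ± 0.27, adjusted p = 0.0891, edgeR's quasi-likelihood test with Benjamini-Hochberg adjustment over all genes tested). It passed the threshold of 0.05 without sham replicate 1 (log2 fold change 0.85) and without IRI replicate 2 (0.82). Hs3st5 averaged 0.172 RPKM in IRI and 0.342 RPKM in sham (log2 fold change -0.95 ± 0.57, adjusted p = 0.204, and -0.25 without sham replicate 2). Hs3st3a1 had 33 reads in the 3 IRI libraries and 14 in the 3 sham libraries, Hs3st2 had 2 in the IRI libraries and 0 in the sham libraries, and Hs3st4 had 0 in all libraries.

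**Figure D2:**
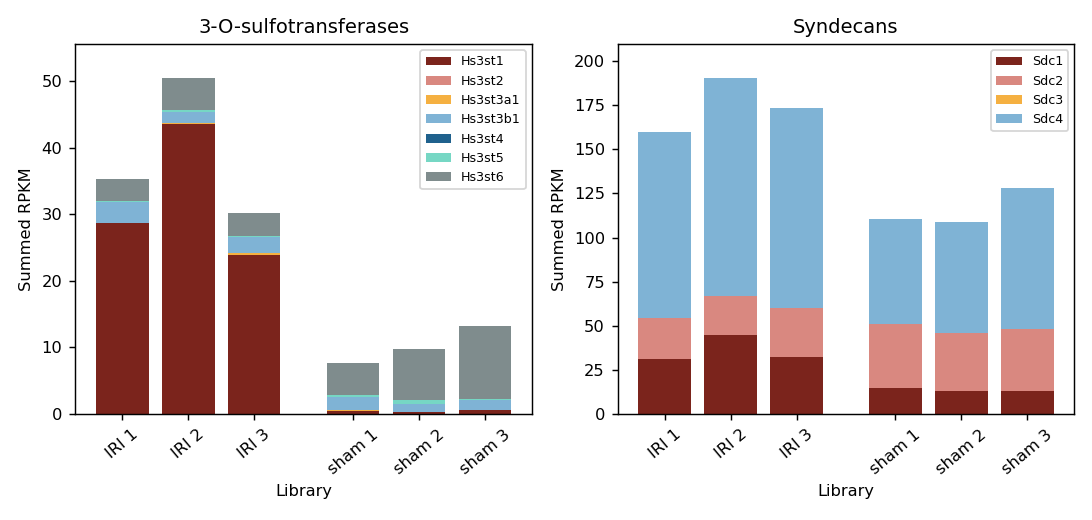
Stacked RPKM of the 7 3-O-sulfotransferase genes (left) and the 4 syndecan genes (right) in each library, IRI left of sham. Hs3st1 fills 79.3% to 86.2% of the left bars in IRI and 3.20% to 5.75% in sham, while Sdc4 is the largest part of every right bar.

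Promoter sequence was looked up for Hs3st1 and for Sdc1 and Sdc4, the core proteins among the 10 genes. The tables of RefSeq promoters (GRCm38.p6) held 7 of the 10 genes, and the 250 bases before the transcription start are printed. These coordinates belong to GRCm38.p6, whereas the reads were processed on mm9. The Hs3st1 window is chr5:39644632-39644881 on the minus strand, that of Sdc1 chr12:8771146-8771395 on the plus strand and that of Sdc4 chr2:164443189-164443438 on the minus strand. Capitals mark matches to a loose NF-kB pattern on either strand.
Hs3st1: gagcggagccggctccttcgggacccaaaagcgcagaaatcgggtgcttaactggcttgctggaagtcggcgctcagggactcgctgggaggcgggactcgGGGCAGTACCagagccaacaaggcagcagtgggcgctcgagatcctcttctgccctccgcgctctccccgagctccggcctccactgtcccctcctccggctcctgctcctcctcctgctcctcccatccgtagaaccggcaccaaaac
Sdc1: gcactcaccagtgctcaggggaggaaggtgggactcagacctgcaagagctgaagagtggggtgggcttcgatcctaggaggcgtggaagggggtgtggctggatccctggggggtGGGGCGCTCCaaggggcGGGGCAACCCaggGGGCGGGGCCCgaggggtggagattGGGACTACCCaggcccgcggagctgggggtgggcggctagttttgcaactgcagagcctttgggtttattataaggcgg
Sdc4: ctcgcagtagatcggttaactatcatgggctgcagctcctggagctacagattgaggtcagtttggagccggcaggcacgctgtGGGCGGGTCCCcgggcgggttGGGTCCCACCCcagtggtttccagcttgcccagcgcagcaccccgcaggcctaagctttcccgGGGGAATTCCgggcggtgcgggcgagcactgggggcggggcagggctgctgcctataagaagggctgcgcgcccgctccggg
The Hs3st1 window held 1 match, 149 to 140 bases before the start, and the Sdc1 and Sdc4 windows held 5 each, some overlapping. This pattern is common: 45.8% of all 32851 promoter windows hold it. The AP-1 pattern TGANTCA, found in 6.75% of all windows, and the STAT pattern TTCNNNGAA, found in 7.02%, had no match in any of the 7 windows. The CRE core TGACG (17.8% of windows) and the hypoxia core ACGTG (16.6%) matched 1 of the 7 each, Hs2st1 and Ext2. The C/EBP pattern TTNNGNAA (36.8%) matched 2, Sdc1 and Hs2st1, and a loose serum response pattern (67.1%) all 7. The G and C content of the Hs3st1 window was 66.0%, against a median of 52.4% over all windows. A match is a description of the letters only.

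All 10 genes passed the filter on low counts. At an adjusted p under 0.05 by edgeR's quasi-likelihood test, 8 of the 10 differed, where 45.5% of all genes tested did: 6 were higher in IRI, where 24.2% of all genes were, and 2 were lower, where 21.2% were. In 6 genes every IRI library lay above every sham library (29.2% of all genes), and in 2 every IRI library lay below (27.2%), so that the groups did not overlap in 8 genes, against 56.4% of all genes. The 6 higher calls held in every alternative fit, and the 2 lower calls did not. Hs3st6 lost its call with limma-voom and without IRI replicate 1 or 3 or sham replicate 2 or 3. Ext2 lost its call without sham replicate 3. Because the genes were picked with this comparison known, nothing is read from these counts. The same holds for calls kept or lost, since each refit used these same libraries. The median log2 fold change of the 10 was 0.68, and that of all genes tested was 0.00.

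Chain polymerisation showed opposite differences in its pair of subunits, which work as a complex. Ext1 had 5.34, 6.05 and 6.62 RPKM in IRI and 3.59, 2.84 and 3.63 RPKM in sham (log2 fold change 0.88 ± 0.14). Ext2 had 4.75, 4.06 and 4.38 RPKM in IRI and 5.61, 6.17 and 6.32 RPKM in sham (-0.42 ± 0.11). Neither gene's groups overlapped. Within a library the ratio of Ext1 to Ext2 RPKM was 1.12, 1.49 and 1.51 in IRI and 0.641, 0.461 and 0.575 in sham, so the more abundant subunit transcript was Ext1 in every IRI library and Ext2 in every sham library. In the GENCODE M21 annotation Ext2 overlaps Alx4 on the opposite strand, which had at most 1 read in an IRI library and at most 3 in a sham library.

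Sulfation enzymes differed among themselves. Hs6st1, which adds the 6-O-sulfates, had 22.9, 28.3 and 19.5 RPKM in IRI and 13.02, 13.7 and 12.8 RPKM in sham (log2 fold change 0.88 ± 0.14), with no overlap. Hs2st1, which adds the 2-O-sulfates, had 2.25, 1.70 and 2.19 RPKM in IRI and 2.31, 2.61 and 2.34 RPKM in sham (-0.21 ± 0.16), a narrow gap without overlap. The ratio of Hs6st1 to Hs2st1 RPKM was 10.1, 16.7 and 8.89 in IRI and 5.63, 5.25 and 5.44 in sham. Ndst1, an N-deacetylase and N-sulfotransferase, had 4.25, 4.28 and 4.96 RPKM in IRI and 2.61, 3.30 and 3.39 RPKM in sham (0.57 ± 0.14). Its paralog Ndst2 had 3.58, 4.18 and 3.19 RPKM in IRI and 3.43, 2.90 and 3.24 RPKM in sham (0.23 ± 0.16), and these groups overlapped. In the GENCODE M21 annotation Ndst1 overlaps the ribosomal protein gene Rps14 on the opposite strand, and counting ignored strand, so reads of the shared stretch cannot be assigned.

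Syndecans span the membrane and carry heparan sulfate chains outside the cell. Sdc4 had 106, 124 and 114 RPKM in IRI and 59.3, 63.0 and 79.5 RPKM in sham (log2 fold change 0.80 ± 0.13). Sdc1 had 31.4, 44.7 and 32.2 RPKM in IRI and 15.02, 13.2 and 12.9 RPKM in sham (1.43 ± 0.15). Both were higher in every IRI library than in any sham library. Another syndecan of these cells, Sdc2, is not one of the 10 genes. It fell to 22.9, 22.4 and 27.7 RPKM in IRI, against 36.0, 32.8 and 35.5 RPKM in sham (-0.48 ± 0.11, adjusted p = 0.00734, edgeR). Its share of the summed syndecan RPKM was 14.0 ± 2.12% in IRI and 30.2 ± 2.45% in sham, while that of Sdc4 was 65.5 ± 0.603% in IRI and 57.9 ± 4.22% in sham and that of Sdc1 20.5 ± 2.57% in IRI and 11.9 ± 1.78% in sham (SD, n = 3 each). Sdc3 had 11 reads in the IRI libraries and 0 in the sham libraries.

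The order of levels differed between the groups. In IRI, Sdc4 led, followed by Sdc1, Hs3st1 and Hs6st1, whose ranges overlapped from neighbour to neighbour, then Ext1 alone, then Ndst1, Ext2, Hs3st6 and Ndst2 with overlapping neighbours, and Hs2st1 last. In sham, Sdc4 led, followed by the overlapping pair Sdc1 and Hs6st1, the overlapping pair Hs3st6 and Ext2, then Ext1, Ndst2 and Ndst1 with overlapping neighbours, Hs2st1, and Hs3st1 last. The coefficient of variation of CPM between libraries ranged from 7.06% (Ext2) to 32.3% (Hs3st1) in IRI and from 3.33% (Hs6st1) to 39.5% (Hs3st6) in sham. IRI replicate 2 held the highest RPKM of Hs3st1, Hs3st6, Hs6st1, Ndst2, Sdc1 and Sdc4 among the IRI libraries, and the lowest of Hs2st1 and Ext2.

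**Figure D3:**
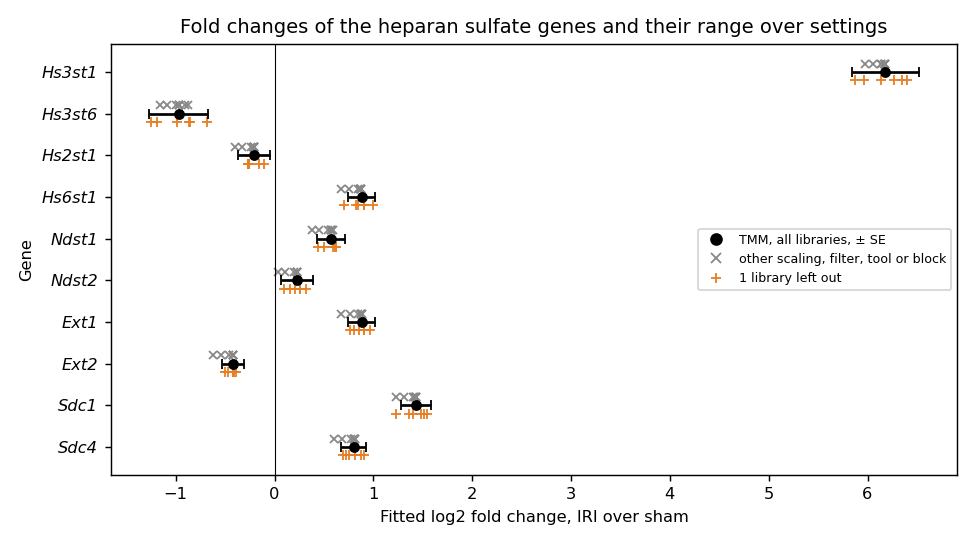
Log2 fold change (IRI over sham, x axis) of each of the 10 genes (black points with SE), with other scalings, filters, tools and the replicate block (grey crosses) and single libraries left out (orange). Hs3st1 stays at 5.87 to 6.40, and no gene crosses the line at 0.

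The genes that feed and surround the pathway were read from the same fit, by role lists that hold 130 genes besides the 10. Of the 97 that were tested, 36 were higher and 16 lower, against 24.2% higher and 21.2% lower among all genes tested. Their median log2 fold change was 0.27. The lists were chosen with earlier results known and are described by counts alone.

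Genes that supply nucleotide sugars rose in most cases: 8 of 11 tested were higher and 1, Gfpt2, was lower (median log2 fold change 0.76). Over all genes tested these shares were 24.2% higher and 21.2% lower. UDP-glucose dehydrogenase Ugdh, which makes the glucuronic acid donor, had 61.6, 47.3 and 33.4 RPKM in IRI and 12.1, 12.5 and 9.77 RPKM in sham (log2 fold change 2.08 ± 0.22, adjusted p = 0.00023, edgeR). Uap1, which makes the N-acetylglucosamine donor, had 70.3, 115 and 81.1 RPKM in IRI and 46.0, 38.7 and 36.5 RPKM in sham (1.17 ± 0.19, adjusted p = 0.00144, edgeR). The Golgi nucleotide sugar transporter Slc35d2 rose as well (1.55 ± 0.35, adjusted p = 0.00723, edgeR). Gfpt2, at 0.155 RPKM in IRI and 0.332 RPKM in sham, was no longer called when IRI replicate 1, IRI replicate 2, sham replicate 1 or sham replicate 2 was dropped (highest adjusted p = 0.072, edgeR).

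Sulfate supply split. Papss1, the abundant synthase of the sulfate donor PAPS, averaged 53.6 RPKM in IRI and 69.8 RPKM in sham and missed the threshold (log2 fold change -0.34 ± 0.14, adjusted p = 0.077, edgeR), while it was called lower without sham replicate 2 (-0.47), without a filter (-0.38) and with upper-quartile (-0.47) or library-size scaling (-0.55). Its rare paralog Papss2 rose to 61, 67 and 32 reads in IRI, against 3, 6 and 6 reads in sham (3.41 ± 0.47, adjusted p = 0.000551, edgeR). The sulfate transporter Slc26a1 rose to 1.09, 2.86 and 1.88 RPKM in IRI, against 0.369, 0.322 and 0.412 RPKM in sham (2.44 ± 0.35, adjusted p = 0.0008, edgeR). Of the PAPS transporters of the Golgi, Slc35b2 fell (-0.73 ± 0.11, adjusted p = 0.000738) and Slc35b3 rose (0.51 ± 0.09, adjusted p = 0.0025, both edgeR).

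Enzymes of the linker were lower where called. Of 7 linker genes, which build the sugars that join chain and protein, 3 were lower and 4 had no call (median log2 fold change -0.33). Over all genes tested 21.2% were lower. Xylt2, which adds the first xylose, averaged 2.18 RPKM in IRI and 4.17 RPKM in sham (-0.90 ± 0.15, adjusted p = 0.00118, edgeR). B3galt6 (-0.71 ± 0.19) and B4galt7 (-0.46 ± 0.14) were the other two, with adjusted p of 0.0162 and 0.0264 by edgeR. B3galt6 lost its call without sham replicate 2, and B4galt7 without IRI replicates 2 or 3 or sham replicates 1 or 3. The polymerase homolog Extl2 fell to 6.56, 6.13 and 6.22 RPKM in IRI, against 12.0, 11.9 and 12.4 RPKM in sham (-0.90 ± 0.10, adjusted p = 0.00017, edgeR). The homologs Extl1 (0.15 ± 0.28, adjusted p = 0.681) and Extl3 (0.12 ± 0.15, adjusted p = 0.539) were not called by edgeR. The epimerase Glce was higher (0.71 ± 0.20, adjusted p = 0.0177, edgeR), a call lost with library size alone (log2 0.52) and without sham replicates 1 or 3.

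Partners of the syndecans and other core proteins showed a mixed picture. All 4 tested partners were higher, where 24.2% of all genes tested were, and the list was chosen with earlier results known. The syndecan-binding scaffold syntenin (Sdcbp) had 183, 190 and 161 RPKM in IRI and 84.2, 67.0 and 71.2 RPKM in sham (log2 fold change 1.30 ± 0.13, adjusted p = 8.99e-05, edgeR). Sdcbp2 (2.74 ± 0.54) and Gipc1 (0.67 ± 0.14) also rose, with adjusted p of 0.00638 and 0.00372 by edgeR. Cask (0.42 ± 0.13, adjusted p = 0.0271, edgeR) lost its call with upper-quartile scaling, with library size alone, without a filter, and without IRI replicate 1 or 2 or sham replicate 2 or 3. Among glypicans and secreted core proteins, 2 of 8 tested were higher, near the 24.2% of all genes tested. These were Gpc1 (0.53 ± 0.14) and Hspg2 (0.55 ± 0.19), with adjusted p of 0.0134 and 0.0424 by edgeR. Gpc1 lost its call with library size alone and without IRI replicate 2 or sham replicate 2. Hspg2 kept it only with RLE scaling, the stricter filter, DESeq2 and limma-voom and without IRI replicate 3. Collagen XVIII (Col18a1), the most abundant of them, averaged 55.4 RPKM in IRI and 46.0 RPKM in sham (0.30 ± 0.16, adjusted p = 0.142, edgeR).

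**Figure D4:**
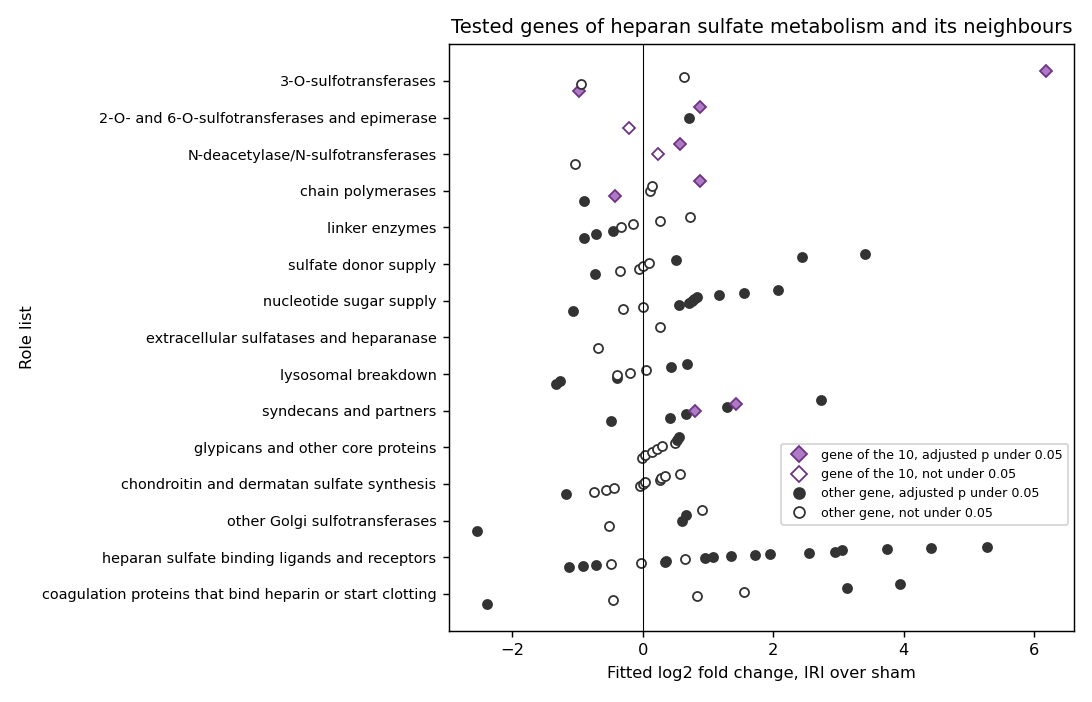
Log2 fold change (IRI over sham, x axis) of every tested gene of the role lists (1 row per list). Diamonds are genes of the 10, circles other genes, and filled marks passed an adjusted p of 0.05. Hs3st1 lies at 6.18, and most filled circles of the nucleotide sugar row lie above 0.

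Transcripts of proteins that bind the chains were also measured. Of 19 tested ligands and receptors, 12 were higher and 3 lower (median log2 fold change 1.08). Among all genes tested, 24.2% were higher and 21.2% lower, and the list was chosen with earlier results known. Hbegf, a heparin-binding ligand of the EGF receptor, had 296, 563 and 655 RPKM in IRI and 10.4, 17.0 and 12.99 RPKM in sham (5.27 ± 0.38, adjusted p = 8.59e-05, edgeR). The FGF receptors Fgfr1 (1.35 ± 0.15), Fgfr2 (1.08 ± 0.18) and Fgfr3 (2.55 ± 0.22) rose, with adjusted p of 0.000196, 0.00141 and 4.94e-05 by edgeR. Pdgfb (4.42 ± 0.39, adjusted p = 5.77e-05) and Wnt4 (1.95 ± 0.22, adjusted p = 0.000334) rose too (edgeR). Vegfa fell (-0.72 ± 0.11, adjusted p = 0.0008, edgeR), and Fgf9 and Bmp4 were lower with calls lost without any of IRI replicates 2 and 3 and sham replicates 1 and 3.

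Of 6 tested coagulation genes, 2 were higher and 1 lower, where 24.2% of all genes tested were higher and 21.2% lower. Thrombomodulin (Thbd), which turns thrombin into an anticoagulant enzyme, had 265, 82 and 162 reads in IRI and 16, 7 and 11 reads in sham (log2 fold change 3.94 ± 0.50, adjusted p = 0.000442, edgeR). Tissue factor (F3), which starts clotting, had 85.6, 439 and 307 RPKM in IRI and 45.4, 22.5 and 29.9 RPKM in sham (3.13 ± 0.68, adjusted p = 0.0149, edgeR). The call of F3 was lost without sham replicate 2 (adjusted p = 0.0629) and without sham replicate 3 (adjusted p = 0.0606, both edgeR). Tfpi2, an inhibitor of serine proteases, fell (-2.39 ± 0.54, adjusted p = 0.00651, edgeR, and -3.29 without IRI replicate 3). Antithrombin (Serpinc1) had 25 reads in the IRI libraries and 36 in the sham libraries (-0.46 ± 0.41, adjusted p = 0.39, edgeR).

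Among tested genes without a clone or predicted-gene symbol, those nearest to Hs3st1 in pattern were Lif, Arid5a, Niacr1, S100a6 and Sprr1a. Nearness was the root mean square difference of centred log2 CPM over the 6 libraries, and was 0.279 for Lif, 0.315 for Arid5a, 0.430 for Niacr1, 0.491 for S100a6 and 0.618 for Sprr1a. Lif, an interleukin 6 family cytokine, had 663 reads in the IRI libraries and 7 in the sham libraries. Arid5a, an RNA-binding regulator of cytokine transcripts, stood at 32.4, 50.4 and 32.0 CPM in IRI and 0.786, 0.253 and 0.544 CPM in sham. Like Hs3st1, Arid5a, the nicotinic acid receptor Niacr1 and the calcium-binding protein gene S100a6 were highest in IRI replicate 2. Such shared highs and lows are favoured by the choice, since nearness was measured over these same libraries.

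**Figure D5:**
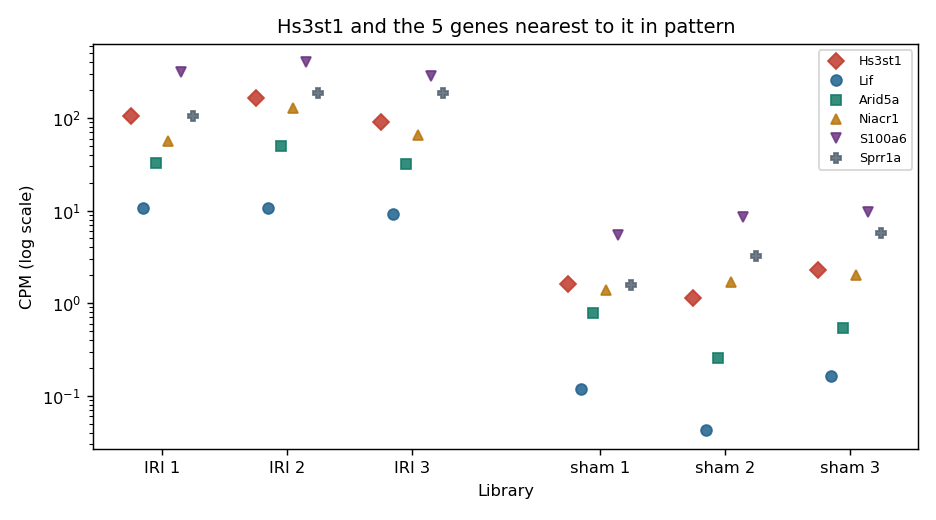
CPM on a log axis of Hs3st1 and its 5 nearest genes in the 6 libraries, IRI left of sham. The genes were picked for likeness over these libraries, clone and predicted-gene symbols left out. Hs3st1 and Arid5a are both lowest in sham replicate 2 and highest in IRI replicate 2.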

How the data were processed

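RNA of 6 samples (3 IRI, 3 sham) was sequenced after SMARTer amplification, per the labels' protocols. The deposited counts are whole reads per gene, counted without strand per the file names. The deposited RPKM is the count divided by gene length, which the file headers name, and by an effective library size. That size was worked out from counts, RPKM and length, and was 0.917 to 1.09 of the gene total. STAR, HTSeq and edgeR were used on build mm9, per the submitters' processing notes; their versions, and the gene models, were not stated. Library sizes exclude 5 HTSeq summary entries: 39.9% to 42.4% of reads had no unique alignment, 6.45% to 7.81% lay in no feature and 1.58% to 1.73% were ambiguous. 

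The test was that of edgeR 4.0.16 (R 4.3.3) on raw counts (filterByExpr, TMM, robust quasi-likelihood, group as the only term), adjusted by Benjamini-Hochberg over 13881 genes and called at 0.05. CPM used TMM-scaled library sizes, and pattern distances used a prior count of 2. SE was derived from the F statistic. On simulated IRI against sham counts with 13889 genes tested, the test called 67 of 100 genes with a 2-fold change and 100 of 100 with a 4-fold change, and made 8 calls among 13689 unchanged genes. In the simulation every gene was given the same relative spread between samples, and few genes changed, equally often up and down. In the real data 45.5% of the genes tested were called, so the simulated rates need not hold there. Alternatives used limma 3.58.1 and DESeq2 1.42.0.

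Members and lists were chosen with earlier results of these data known. The rule named all 10 members, the called list genes without overlap and at least 1 in log2 fold change, and the most abundant gene of each list. It also named the 5 genes nearest to Hs3st1, clone and predicted-gene symbols left out. A subset of the genes named by the rule is described. Other genes were chosen after their values were seen. Acpl2 stood for Pxylp1, and of 2 identifiers named Fgfr1 the one with more reads was used.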

Additional observations from a re-analysis of the deposited data

How the results depend on the processing

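Hs3st1 kept its direction in all 14 alternatives, with log2 fold changes of 5.97 to 6.18 under other scalings, filters and tools and 5.87 to 6.40 with single libraries left out. None of the 10 members changed sign. Members' differences follow the scaling: the median shift over all genes was -0.201 with library size alone and -0.122 under upper-quartile scaling, and Ndst2 stood at 0.03, Ndst1 at 0.38, Hs2st1 at -0.40, Hs6st1 and Ext1 at 0.67, Ext2 at -0.62 and Sdc4 at 0.60 with library size alone, and Ext2 at -0.54 with upper-quartile scaling. Of the 6312 calls over all genes, 53.3% were higher, against 42.0% of 2748 higher and 3789 lower calls under upper-quartile scaling, and 35.6% of 2400 higher and 4337 lower calls where library size alone was used. With single libraries left out, 2566 to 3172 genes were higher and 2295 to 2734 lower. The list genes besides the 10 had 29 to 37 higher and 12 to 23 lower over all alternatives, with 30 to 37 higher and 12 to 16 lower when single libraries were left out, and 29 higher and 23 lower with library size alone. In summed counts in place of RPKM, the share of Hs3st1 was 84.5% in IRI and 6.49% in sham, that of Hs3st6 5.23% in IRI and 54.5% in sham, and that of Sdc4 60.2% in IRI and 52.0% in sham. With single libraries left out, the RPKM share of Hs3st1 was 80.2% to 83.7% in IRI and 3.95% to 5.22% in sham, and that of Sdc4 65.2% to 65.8% in IRI and 55.8% to 60.0% in sham. Of the 5 genes nearest to Hs3st1, 3 stayed with a prior count of 0.5 and 4 with library size alone.

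Same-numbered samples correlated in their deviations from the group means by 0.202, 0.175 and 0.0995, the last under 0.1, so the numbers were not taken as pairs, although every sample correlated best with its own number. With the replicate block 3368 genes were higher and 3095 lower, the list genes had 36 higher and 18 lower, and Hs3st1 stood at a log2 fold change of 6.14. With the block, calls were gained for Hs3st3b1, Sulf2, Gal3st1 and Tpst1 and lost for F3 (adjusted p = 0.0689, edgeR) and Hspg2. Low sham counts limit Hs3st1, which rests on 110 sham reads.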

Other observations

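Of 8 tested genes that break heparan sulfate down in the lysosome, 2 were higher and 3 lower, where 24.2% of all genes tested were higher and 21.2% lower. Naglu, an N-acetylglucosaminidase, fell to 5.13, 4.84 and 4.25 RPKM in IRI, against 11.1, 12.8 and 12.8 RPKM in sham (log2 fold change -1.33 ± 0.13, adjusted p = 9.28e-05, edgeR), and the sulfamidase Sgsh fell too (-1.26 ± 0.26, adjusted p = 0.00456, edgeR). Hgsnat, the acetyltransferase of this route, rose to 58.9 RPKM in IRI, against 37.8 RPKM in sham (0.68 ± 0.13, adjusted p = 0.00314, edgeR). The glucuronidase Gusb was lower (-0.39 ± 0.13, adjusted p = 0.0333, edgeR), a call lost without IRI replicate 1 or 2 or sham replicate 2 or 3.

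Chondroitin and dermatan sulfate synthesis, which competes for the same linker, had 1 called gene of 11 tested, where 45.5% of all genes tested were called. This was the sulfotransferase Chst12, lower at 0.744 RPKM in IRI and 1.74 RPKM in sham (log2 fold change -1.18 ± 0.32, adjusted p = 0.0161, edgeR). Its call was lost without IRI replicate 2 or sham replicate 3. Among 5 other Golgi sulfotransferases tested, Chst9 fell to 14, 10 and 29 reads in IRI, against 88, 111 and 116 reads in sham (-2.53 ± 0.43, adjusted p = 0.00162, edgeR, and -3.12 without IRI replicate 3), while the tyrosine sulfotransferase Tpst2 rose (0.66 ± 0.11, adjusted p = 0.00165, edgeR). The extracellular sulfatase Sulf2, which trims the chains at the cell surface, averaged 1.71 RPKM in IRI and 2.81 RPKM in sham (-0.68 ± 0.28, adjusted p = 0.0781, edgeR). It passed 0.05 with upper-quartile or library-size scaling, with DESeq2 and without IRI replicate 3 or sham replicate 2. Sulf1 and Hpse2 had 0 reads in all libraries.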
